A study of Mus musculus with 8 samples.

Results

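N6-methyladenosine (m6A) peaks of control mouse hepatic stellate cells, cultured for 7 days and so spontaneously activated, were described from the authors' pooled peak list. All 8397 rows of the control list were taken, of 15106 peaks in the control and Mettl3 knockout lists of the study. The control cells were primary stellate cells of C57BL/6J mice, with the genotype WT in the labels and the name Control in the sample titles. The labels give 2 precipitated and 2 input control libraries, and 2 of each for the Mettl3 conditional knockout (cKO), which is not compared here. The number of mice behind a library is not given in the sources used here.

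m6A is a methyl mark on adenosines inside RNA. It is written by the METTL3 and METTL14 methyltransferase with its adaptor WTAP and partners such as RBM15, VIRMA and ZC3H13, read by YTH-domain proteins and removed by the demethylases FTO and ALKBH5. In mammals it lies mostly in long internal exons and around stop codons, often within the letters GGACT, and it is known for shortening the life of messenger RNAs. Stellate cells store vitamin A around the liver sinusoids, and in culture they become contractile, collagen-secreting myofibroblasts.

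Sequences could be read where a peak met the first 50 bases of a gene in a RefSeq table of the GRCm38.p6 assembly, the mm10 build of the peaks. Control peaks met 89 such windows, with 88 peaks (1.05% of the list). Of these, 35 carried the authors' label for 5′ UTRs, 38 that for coding sequence and 15 that for other exons. Each peak has 1 such label, so a peak labelled coding sequence can reach into a UTR. The letters GGACT on the transcribed strand stood in 9 of these 89 windows (10.1%), against 1889 of all 32817 windows of this length (5.76%). A pair of these 9 windows, both of Eif4g3, start 1 base apart and hold the same letters, which leaves 8 separate sites. The difference from all windows rests on these few sites and was not tested. Read on the other strand, the same letters stood in 5 of the 89 windows (5.62%), against 1598 of all windows (4.87%). In 7 genes the letters lay inside the peak itself, and 4 of these genes are shown because their peaks had the highest folds. The capitals mark GGACT in 30 bases of the transcribed strand, 5′ to 3′.
Zfp36l1, chr12:80112964-80112993, minus strand: gggcgccgggagcaggcgtgtgGGACTcct
Zc3h14, chr12:98771028-98771057, plus strand: gataagtaggtaGGACTtacaggacacaag
Chmp3, chr6:71544360-71544389, plus strand: agaccacccggaGGACTtgccctagaccgg
Plaur, chr7:24462501-24462530, plus strand: gaagaacccatgGGACTcccaaggcggctg
The peak of Zfp36l1, which encodes an RNA-binding protein that promotes decay of AU-rich messengers, had a fold of 114 in the 5′ UTR and shared its place with a peak on the opposite strand. The peaks of Zc3h14, a poly(A)-binding zinc finger gene, and Chmp3, a membrane-scission (ESCRT-III) gene, had folds of 20.1 and 17.7. That of Plaur, the urokinase receptor gene, had a fold of 9.27. A match of 5 letters describes these windows and locates no methylated base.

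Overlap with a peak, in part or whole, was found for 7 of the 1005 microRNA hairpins in the RefSeq table, with 8 peaks, and 3 mature microRNAs inside fully covered hairpins are shown with the seed, bases 2 to 8, in capitals. Their seeds differ from each other.
mmu-miR-671-5p, chr5:24592132-24592154, plus strand: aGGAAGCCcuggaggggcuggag
mmu-miR-3618-3p, chr16:18284562-18284583, minus strand: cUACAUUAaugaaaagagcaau
mmu-miR-5114, chr19:44303171-44303192, plus strand: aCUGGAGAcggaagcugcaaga
The hairpin of miR-671 lay inside a 360-nucleotide exon peak of Chpf2, a chondroitin polymerase gene, with a fold of 69.2, and this peak shared its place with one on the opposite strand. The hairpin of miR-3618 lay in the 5′ UTR peak of Dgcr8, whose product guides the cleavage of microRNA precursors by Drosha (fold 11.3). That of miR-5114 lay in a 3′ UTR peak of the fatty acid desaturase gene Scd2 (fold 31.0). Chpf2, Dgcr8 and Scd2 were named after their values were seen. Fragments of a host transcript and of a microRNA precursor cannot be told apart in these values.

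Each peak carries 1 fold, the authors' own value, read here as precipitated over input RNA. Each fold is the result of 1 pooled call, so no value per replicate and no test exists for any difference below. Intervals on shares are exact Clopper-Pearson 95% intervals and cover counting error only, and read depth is unknown. RNA abundance was not analysed here, so a gene without a peak may be unmethylated, weakly expressed or not expressed.

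The transcript parts had median folds between 15.7 and 20.1, while their shares of multi-block peaks ranged from 9.61% to 40.9%. A peak is split into blocks at exon junctions, so these shares also depend on the exon layout of each part. That layout was not analysed here. Coding sequence held 4451 peaks, with a median fold of 20.1 (quartiles 10.5 and 49.1), and 3′ UTRs held 2665, with a median of 19.3 (10.5 and 46.3). The 195 peaks in 5′ UTRs had a median of 15.7 (8.45 and 43.7), and the 1077 peaks in other exons, which the authors assigned to no more specific part, one of 17.7 (9.26 and 37.8). A fold of 100 or more was reached by 988 of all 8397 peaks (11.8%). It was reached by 12.4% of coding-sequence peaks (interval 11.4 to 13.4), 11.7% of 3′ UTR peaks (10.5 to 13), 11.3% of 5′ UTR peaks (7.21 to 16.6) and 9.47% of other-exon peaks (7.79 to 11.4). The intervals of coding sequence and both UTRs overlapped, and that of other exons ended just below the start of that of coding sequence. With p of at most 1e-10 the order of the 2 main parts turned, with medians of 55.4 in 3′ UTRs and 53.5 in coding sequence.

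**Figure D1:**
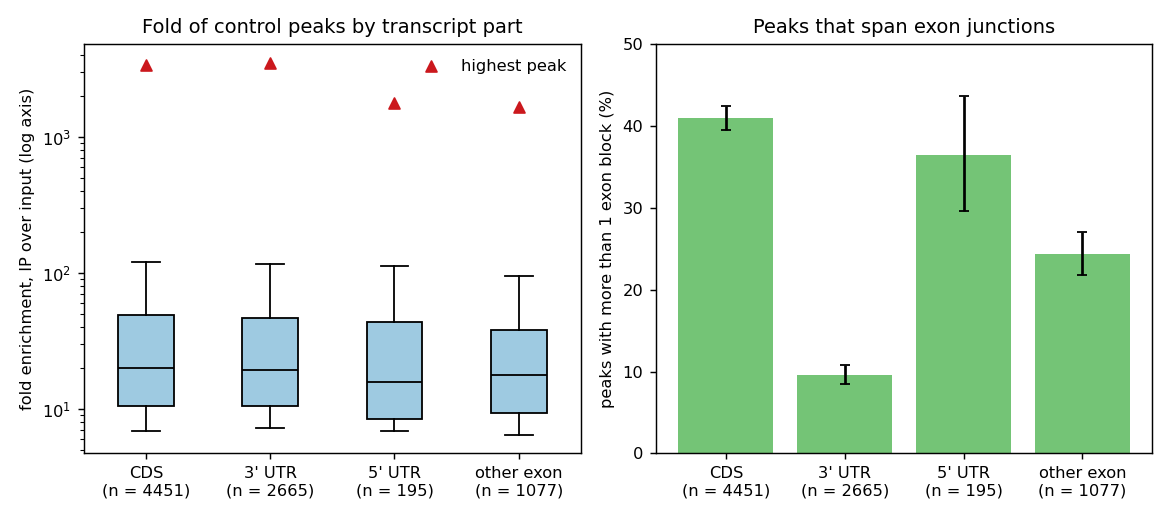
Left, the fold of control peaks (log axis) in each transcript part, with the median as a line, quartiles as the box, the 10th and 90th percentiles as whiskers and the highest peak as a triangle. Right, the share of peaks with more than 1 exon block, with exact 95% intervals. The fold boxes lie at nearly the same height, while multi-block peaks make up 40.9% of coding-sequence peaks and 9.61% of 3′ UTR peaks.

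Multi-block peaks differed from peaks of 1 block in both fold and width in 3′ UTRs, and little in either in coding sequence. In coding sequence, 1822 peaks with more than 1 block had a median fold of 18.9, against 20.9 for the 2629 peaks of 1 block, and the median widths were 240 and 238 nucleotides. In 3′ UTRs, the 256 multi-block peaks had a median fold of 46.9 and a median width of 420.5 nucleotides, against 17.7 and 210 nucleotides for the 2409 peaks of 1 block. A fold of 100 or more was reached by 30.9% of the multi-block 3′ UTR peaks (25.3 to 36.9), against 9.67% of the others (8.52 to 10.9). All 3′ UTR peaks of 301 to 450 nucleotides, whatever their blocks, had a median fold of 49.1. Whether multi-block peaks differ in fold from others of equal width was not tested. Whole exons bridged by a coding-sequence peak, that is its inner blocks, had a median length of 103.5 nucleotides (quartiles 75 and 138) over 1034 blocks in 695 peaks.

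Across the list, wider peaks had higher folds (Spearman rho 0.724 over 8397 peaks, a description across peaks that share libraries). How the authors' fold scales with the width of a peak is not given in the sources used here. A part of this relation may therefore hold by construction, which was not tested. The 1035 peaks of up to 150 nucleotides had a median fold of 8.05, and the 107 peaks over 1000 nucleotides one of 183. The labels' protocols give fragments of 100 to 200 nucleotides, so peaks of that class have the width of single fragments. The relation held in both main parts: 3′ UTR peaks of 600 nucleotides or more numbered 136 and had a median fold of 163, and coding-sequence peaks of that width numbered 348 and had a median of 113. Of these wide peaks, 190 in coding sequence and 85 in 3′ UTRs lay within 1 exon block.

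**Figure D2:**
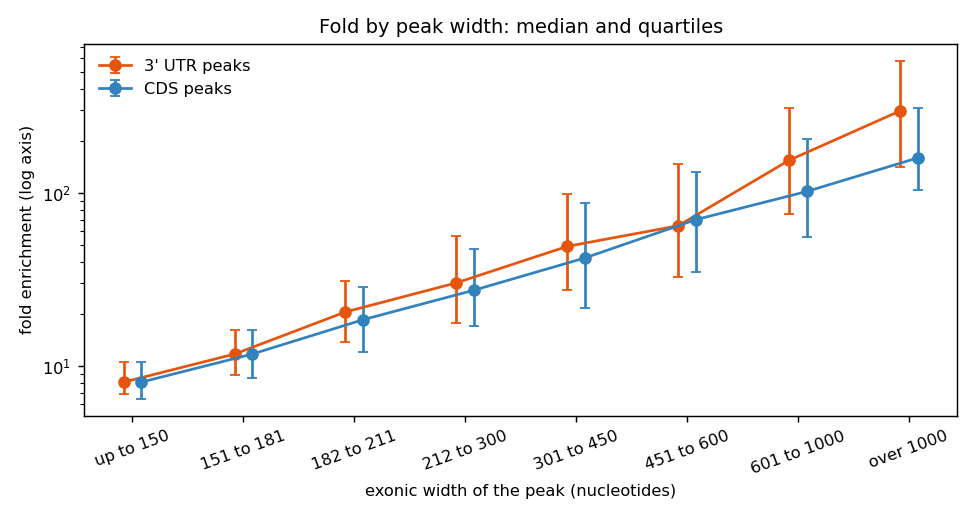
Median fold (log axis) with quartile bars against exonic peak width in 8 width classes, for 3′ UTR peaks and CDS peaks. Both lines run upwards over all classes, to medians of 298 in 3′ UTRs and 159.5 in coding sequence over 1000 nucleotides.

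The highest folds belonged to Lats2, Rpl21 and Ankrd50. Lats2, a kinase of the Hippo growth-control pathway, led with 3530 in its 3′ UTR (chr14:57690859-57691367, mm10). Rpl21, a protein of the large ribosomal subunit, followed with 3380 in a 299-nucleotide coding peak of 2 blocks (chr5:146835541-146835988). Ribosomal protein genes have near-identical pseudogene copies among which reads can be split, so the value for Rpl21 is uncertain. Ankrd50, an ankyrin-repeat gene of endosomal recycling, had 2920 over 961 nucleotides of a coding exon (chr3:38456103-38457063) and 788 in the next peak, separated from it by a short gap. Akap2 and Pakap, overlapping genes of a protein kinase A anchoring protein, carried 2410 and 2630 at the same place, so that their reads cannot be told apart.

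Several other leading genes paired 1 peak of very high fold with peaks of far lower fold, or had no further peak. Ube2o, a ubiquitin-conjugating enzyme, had its only peak in coding sequence with a fold of 2320. Dusp3, a dual-specificity phosphatase acting on MAP kinases, had 1890 in the 3′ UTR and 17.3 in another exon. Pcdh18, a protocadherin, had coding peaks of 1880, 86.6 and 85.4. Hps6, a subunit of a lysosome-related organelle complex, had coding peaks of 1870 and 11.7. Erp29, an endoplasmic reticulum chaperone, had a single coding peak of 1810. Aff1, a scaffold of transcription elongation, showed the spread possible within a gene, with 28.6 and 1340 in the 3′ UTR and 38.7, 60.0 and 297 in coding sequence. In all, 34 peaks reached a fold of 1000, 21 of them in coding sequence and 11 in 3′ UTRs.

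Most genes had a single peak, and genes with several peaks had a much higher best peak but only a somewhat higher typical peak. Of 4986 genes, 3085 (61.9%, interval 60.5 to 63.2) had 1 peak, 1130 had 2, 423 had 3, 176 had 4, 78 had 5 and 94 had 6 or more. More than 1 peak was thus found in 38.1% of genes, and in 25.3% with p of at most 1e-10. The median of the best fold was 17.7 in genes of 1 peak and 115.5 in genes of 6 or more. The median over genes of the gene's own median fold was 17.7 in genes of 1 peak. It lay between 20.1 and 25.4 in the classes of more peaks, without a steady rise. The number of peaks and the best fold had a Spearman rho of 0.418 across genes, and the number of peaks and the median fold one of 0.132. A best fold over more peaks is a maximum over more values, which is part of the first relation by construction. With genomic gene length the number of peaks had a rho of 0.248 over 4837 genes.

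**Figure D3:**
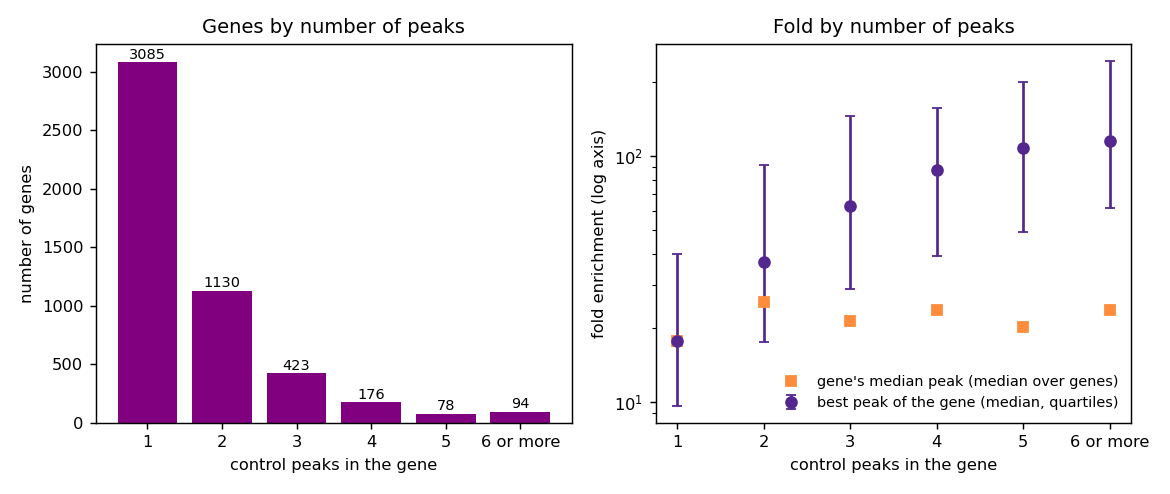
Left, the number of genes by their number of control peaks. Right, the fold (log axis) by the number of peaks, with the best peak of each gene as circles (median and quartiles over genes) and each gene's median peak as squares. The circles climb to 115.5 in genes of 6 or more peaks, while the squares lie between 17.7 and 25.4.

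Genes with many peaks differed in how the folds were laid out. Ahnak, a giant scaffold protein of the membrane skeleton, had 10 peaks over 15139 nucleotides, 9 of them side by side in coding sequence. Their folds, in genome order, were 68.2, 6.14, 248, 2010, 494, 1730, 732, 521 and 65.2, and the peak of 494 was the widest of the list, at 4644 nucleotides. Plec, which encodes the cytoskeletal linker plectin, had 11 peaks from 2.60 to 273, the highest being 3899 nucleotides wide. Golgb1, a giant Golgi tether, had 11 coding peaks within a narrower range of 25.2 to 183. Bod1l, a protector of replication forks, had 11 peaks from 5.70 to 305. The histone methyltransferase Kmt2a had 9 peaks, none above 54.4, and its relative Kmt2d had 13, none above 76.7. In the 1901 genes with 2 or more peaks, the highest fold was a median of 4.08 times the lowest (quartiles 1.92 and 10.3).

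Within single genes, the best 3′ UTR peak was not more often the higher than the best coding peak. In 686 coding genes with peaks in both parts, the best 3′ UTR fold was the higher in 312 (45.5%, interval 41.7 to 49.3) and the best coding fold in 372, with 2 equal, and the median ratio of 3′ UTR over coding fold was 0.871. In 92 genes with 5′ UTR and coding peaks, the 5′ UTR peak was the higher in 35 (38.0%, 28.1 to 48.8), with a median ratio of 0.689. In 72 genes with 3′ and 5′ UTR peaks, the 3′ UTR peak was the higher in 43 (59.7%, 47.5 to 71.1), with a median ratio of 1.33. Each best fold is a maximum over the gene's peaks in that part. Over the list, 4451 coding-sequence peaks lay in 2772 genes, 2665 3′ UTR peaks in 2128 and 195 5′ UTR peaks in 189. These shares therefore lean by construction towards the part with more peaks per gene. The best peak also had no set place along the transcript. In genes of 2 peaks it was the one nearer the 5′ end in 541 and the one nearer the 3′ end in 543. In genes of 3 peaks it was the first in 133, the second in 130 and the third in 151.

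Genes with a single peak, 61.9% of all, can have peaks in only 1 part of the transcript. Of 4751 coding genes, 2034 (42.8%) had coding peaks without UTR peaks, 1409 (29.7%) had 3′ UTR peaks alone of these parts, and 645 (13.6%) had both. Peaks in all of coding sequence, 3′ UTR and 5′ UTR were found in 41 genes. The 3′ UTR peaks lay a median of 1316 nucleotides along the genome from the RefSeq 3′ end of the gene (quartiles 456 and 2669, 2573 peaks), and 41.7% of them lay within 1 kb. The distance to the stop codon was not analysed here.

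The named 5′ UTR peaks of highest fold belonged to Vegfa, Angpt2, St3gal2, Nrp2 and Cdc42ep3. Vegfa, the vascular endothelial growth factor gene, had 446 in the 5′ UTR, 376 in the 3′ UTR and 20.5 in coding sequence. Angpt2, an antagonist ligand of the TIE2 receptor, had 393 in the 5′ UTR against 30.6 in the 3′ UTR and 16.9 in coding sequence. Nrp2, a co-receptor for semaphorins and VEGF ligands, had 238 in the 5′ UTR and 11.3 in the 3′ UTR. The sialyltransferase gene St3gal2 had 248, and Cdc42ep3, an effector of the GTPase CDC42, had 232 in the 5′ UTR and 47.5 in coding sequence. A predicted gene, passed over by the naming rule, held the highest 5′ UTR fold, at 1770. Of 180 5′ UTR peaks inside their RefSeq gene, 66.7% lay within 1 kb of its start.

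Gene groups were then read against all RefSeq coding genes, of which 4694 of 21900 (21.4%) had a control peak. The median best fold of those 4694 genes was 27.0, they had 1.71 peaks each, and 18.1% of them reached a best fold of 100. These shares count genes that stellate cells may not express, so a high share can reflect expression as well as methylation. The gene lists are described by counts and medians, with no test. They were chosen with earlier results of these data known, and whether that choice raised their shares was not tested. Genes with a peak number 4110 of the 4986 with folds of at least 10 and 2686 with p of at most 1e-10, so shares fall under both filters.

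Genes of the m6A machinery itself carried peaks in 16 of 26 members (61.5%, interval 40.6 to 79.8), with a median best fold of 98.8 and 8 members at 100 or more. Of their 44 peaks, 72.7% lay in coding sequence. Rbm15 and Rbm15b, RNA-binding adaptors that bring the writer to its targets, had best folds of 796 and 513. Zc3h13, which keeps the writer complex in the nucleus, had 6 coding peaks from 8.45 to 322. Prrc2a, a proposed reader, had 7 peaks from 3.06 to 120. Wtap, the adaptor of the writer, had 1 coding peak of 23.4, and Mettl16, a separate methyltransferase, had 1 of 8.05. Mettl3 and Mettl14 had none.

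Genes of growth factor signalling had both frequent and high peaks, and most peaks of the receptor and ligand list lay in 3′ UTRs. Of 34 receptor tyrosine kinases and ligands, 21 had a peak (61.8%, 43.6 to 77.8), with a median best fold of 94.1, and 59.0% of their peaks lay in 3′ UTRs, against 32.8% of the peaks of all coding genes. The ephrin ligand gene Efnb2 had 1100 in coding sequence, 163 in the 3′ UTR and 20.5 in the 5′ UTR. Egfr, the epidermal growth factor receptor gene, had 730 and 25 in its 3′ UTR. Pdgfa, a ligand that drives stellate cell growth, had a single peak of 504, and Fgfr2 had the lowest best fold, 6.44. Of 38 kinases and feedback genes of the RAS, MAPK and PI3K pathways, 32 had a peak (84.2%, 68.7 to 94.0), with a median best fold of 69.9. With p of at most 1e-10 the share was 57.9%. The feedback inhibitor Spry2 had 756 over a 1104-nucleotide coding peak, and the MAP kinase phosphatase gene Dusp4 had 571 in its 3′ UTR. Mapk14, the p38α kinase, had 269 in its 3′ UTR, and Tsc1, a brake on mTOR, had only 5.64. Irs2, an adaptor of the insulin receptor, had 6 peaks from 10.5 to 90.6.

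The TGF-beta and BMP pathway, a main driver of fibrosis, had peaks in 23 of 37 members (62.2%, 44.8 to 77.5), with a median best fold of 89.4. Of its 51 peaks, 8 lay in 5′ UTRs (15.7%), against 2.35% of the peaks of all coding genes. The SMAD co-repressor gene Skil had 487 in coding sequence and 23.8 in the 5′ UTR. Its relative Ski had 6 peaks, none above 45.1. Ltbp1, which holds latent TGF-beta in the matrix, had 339 and 116 in the 3′ UTR. Acvr2a, an activin receptor, had 328 in a coding peak of 3 blocks, and the transducer Smad5 had 9.26.

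Hippo pathway genes had a peak in 20 of 28 members (71.4%, 51.3 to 86.8), with a median best fold of 46.5. With p of at most 1e-10 the share was 46.4%. Behind Lats2 came the angiomotin-like scaffolds Amotl2, at 505, and Amotl1, at 363, and the upstream regulator Nf2 was lowest, at 7.65. Wnt and Notch genes had a peak in 20 of 37 members (54.1%, 36.9 to 70.5; median 44.1). The Frizzled receptors Fzd4 and Fzd7 had 431 and 263, the Notch ligand Jag1 had 335, and Apc, part of the β-catenin destruction complex, had 8 peaks from 10.9 to 206.

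**Figure D4:**
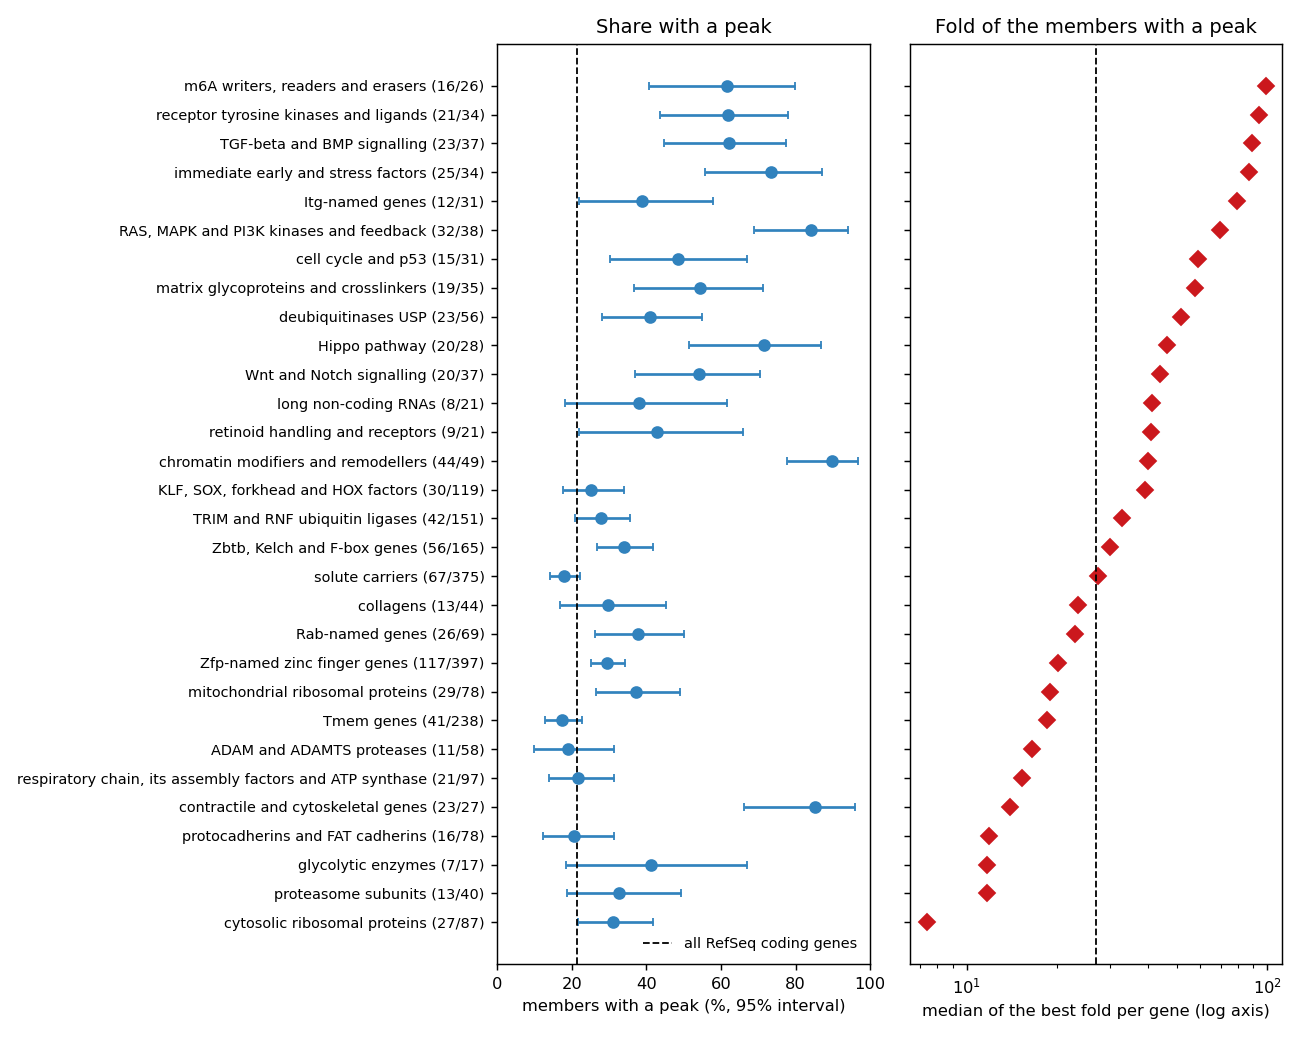
Left, the share of a gene list's members with a control peak, with exact 95% intervals and members counted beside each name; right, the median best fold of the members with a peak (log axis). Dashed lines mark all RefSeq coding genes, at 21.4% and a fold of 27.0, and the 30 lists with at least 5 members in the peak list are sorted by the median best fold, from 98.8 for the m6A machinery at the top to 7.36 for cytosolic ribosomal proteins at the bottom.

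Among regulators of transcription, chromatin modifiers had the most peaks per gene, at 3.25, while the immediate early, KLF to HOX and Zfp-named lists had 1.64 to 1.93, against 1.71 for all coding genes. Immediate early and stress factors had a peak in 25 of 34 members (73.5%, 55.6 to 87.1), with a median best fold of 87.0. Cebpd, a CCAAT-binding factor, had 506 in its 3′ UTR, and Nfe2l2, the NRF2 gene of the antioxidant response, had 501 in coding sequence. Junb, an AP-1 subunit, had 459 in a peak of 1216 nucleotides labelled coding sequence. Btg1, an antiproliferative deadenylase cofactor, was lowest, at 5.64. Chromatin modifiers had a peak in 44 of 49 members (89.8%, 77.8 to 96.6), or 59.2% with p of at most 1e-10. Their median best fold was 40.05, and 86.7% of their 143 peaks lay in coding sequence. The histone demethylase gene Kdm5a had 689, the acetyltransferase gene Crebbp had 339 and the histone methyltransferase gene Nsd1 had 331, while the demethylase gene Kdm1a had 2.03.

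KLF, SOX, forkhead and HOX factors had a peak in 30 of 119 members (25.2%, 17.7 to 34.0; median 39.3), with 55.2% of their peaks in 3′ UTRs. Foxp1 had 382, Klf6 198 and Klf2 143, and Klf15 was lowest, at 6.24. Zfp-named zinc finger genes had a peak in 117 of 397 members (29.5%, 25 to 34.2), with a lower median of 20.1, and 62.4% of their peaks lay in coding sequence. Zfp451 reached 470 and Zfp638 had 7 peaks, none above 73.3. Cell cycle and p53 genes had a peak in 15 of 31 members (48.4%, 30.2 to 66.9; median 58.8). Mdm2 and Mdm4, inhibitors of p53, had 595 and 339, the CDK inhibitor gene Cdkn2b had 393, and cyclin A2 (Ccna2) had 4.03.

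Among genes of the myofibroblast, matrix glycoproteins and integrins had higher median folds than collagens and contractile genes. Matrix glycoproteins and crosslinkers had a peak in 19 of 35 members (54.3%, 36.6 to 71.2), with a median best fold of 57.6. Hspg2, the perlecan gene, had 1210 in its 3′ UTR, Lamc1, a laminin chain, had 156, Fbn1, the fibrillin gene, had 127 and Lamb1, another laminin chain, had 4.58. Itg-named genes, most of them integrin subunits, had a peak in 12 of 31 members (38.7%, 21.8 to 57.8), with a median of 79.3, and 16 of their 20 peaks lay in 3′ UTRs. Itga9, Itga5 and Itga4 had 3′ UTR peaks of 389, 374 and 324, and Itgb1, the common partner chain, had only 3.00 and 2.88.

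Collagens had a peak in 13 of 44 members (29.5%, 16.8 to 45.2) and a median of 23.4. The short-chain collagen gene Col8a1 had 3 peaks of 586, 312 and 180, and Col12a1, a fibril-associated collagen, had 819, 42.4 and 20.5. The fibrillar genes Col3a1, Col1a1 and Col1a2, chosen here as activation markers, had best folds of 35.0, 21.5 and 16.5, and the basement membrane gene Col4a1 had 1.82.

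Contractile and cytoskeletal genes had frequent peaks with low folds. A peak was found in 23 of 27 members (85.2%, 66.3 to 95.8). The share was 51.9% with folds of at least 10 and 77.8% with p of at most 1e-10. The median best fold was 13.9, and 22 of their 56 peaks (39.3%) had a fold below 5, against 4.49% of all control peaks. Smooth muscle myosin heavy chain (Myh11) had 159 and myosin light chain kinase (Mylk) had 154. The filamin gene Flna had 5 peaks, none above 7.58. Acta2, the smooth muscle actin of activated stellate cells, had 15.1, Tagln 2.30, Cnn1 2.87 and the enteric actin gene Actg2 2.02.

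Retinoid genes, tied to the vitamin A store of the stellate cell, had a peak in 9 of 21 members (42.9%, 21.8 to 66.0; median 41.1). The retinoid receptor gene Rxra had 1030 in a 240-nucleotide 3′ UTR peak, beside 28.2 and 11.3 upstream in the same UTR. Lrat, the enzyme that esterifies retinol, had 114 in the 3′ UTR and 13.7 in coding sequence, and the lipase gene Pnpla2 had 10.5 and 6.04.

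Housekeeping gene lists had median best folds from 7.36 to 18.9, below the 27.0 of all coding genes, though some members were high. Cytosolic ribosomal protein genes had a peak in 27 of 87 members (31.0%, 21.5 to 41.9) with a median best fold of 7.36, and 8 of 27 lay below 5 throughout. With folds of at least 10 the share with a peak was 9.20%, and with p of at most 1e-10 it was 20.7%. Apart from Rpl21, the highest were Rps3a1, at 60.0, and Rpl28, at 54.2, and Rpl7 was lowest, at 2.08. Proteasome subunits had a peak in 13 of 40 members (32.5%, 18.6 to 49.1; median 11.7), led by Psmd7 at 358. A best fold of 100 was reached by 3 of these 13, against 18.1% of all coding genes with a peak. Glycolytic enzymes had a peak in 7 of 17 (41.2%, 18.4 to 67.1; median 11.7), none above 25.4, although Hk2, a hexokinase, had 7 peaks in its 3′ UTR, a pair of which overlapped. Respiratory chain genes with their assembly factors had a peak in 21 of 97 (21.6%, 13.9 to 31.2; median 15.3), a share near that of all coding genes, led by Ndufaf4 at 114. Mitochondrial ribosomal proteins had a peak in 29 of 78 (37.2%, 26.5 to 48.9; median 18.9), led by Mrpl41 at 302, and 4 of the 29 reached 100.

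Membrane, trafficking and protease families had median best folds from 11.9 to 27.4. Solute carriers had a peak in 67 of 375 members (17.9%, 14.1 to 22.1; median 27.4), with the zinc transporter gene Slc39a6 at 1040 and the adenine nucleotide carrier gene Slc25a4 at 2.07. Tmem genes had a peak in 41 of 238 (17.2%, 12.7 to 22.6; median 18.5), with 69.2% of peaks in 3′ UTRs and Tmem184c highest, at 237. Rab-named genes had a peak in 26 of 69 (37.7%, 26.3 to 50.2; median 22.95), with 62.9% of peaks in 3′ UTRs and Rab3ip highest, at 331. ADAM and ADAMTS proteases had a peak in 11 of 58 (19%, 9.87 to 31.4; median 16.5), led by the aggrecanase gene Adamts5 at 408. Protocadherins and FAT cadherins had a peak in 16 of 78 (20.5%, 12.2 to 31.2; median 11.9), and 89.6% of their peaks lay in coding sequence. Fat1, at 1990 with 14 peaks, and Pcdh18 stood far above the lowest member, Dchs1, at 6.84.

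Among enzymes of ubiquitin transfer and removal, deubiquitinases of the USP family had a peak in 23 of 56 members (41.1%, 28.1 to 55.0; median 51.9), with 79.1% of peaks in coding sequence. Usp47 had 469, 370, 133 and 12.1, and Usp24 had 3.65. TRIM and RNF ligases had a peak in 42 of 151 (27.8%, 20.8 to 35.7; median 33.0), with Rnf11 at 1270 in the 3′ UTR. Zbtb, Kelch and F-box genes had a peak in 56 of 165 (33.9%, 26.8 to 41.7; median 30), with Klhl9, an adaptor of a ubiquitin ligase, at 1650. Olfactory receptors, as genes with little expression outside the nose, had a peak in 1 of 1110, Olfr987, at 6.44.

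Non-coding genes, pseudogenes included, held 290 peaks, with lower folds as a pooled group than protein-coding genes. Their median fold was 13.7, against 19.3 for the 8107 peaks of protein-coding genes, and 5.52% of them reached 100 (interval 3.19 to 8.80), against 12% (11.3 to 12.7). By type, the median was 18.7 for 48 processed-transcript peaks, 17.5 for 62 lincRNA peaks and 15.7 for 76 antisense RNA peaks. Norad, a long non-coding RNA that binds PUMILIO proteins, had a single peak of 358. Tug1, a nuclear long non-coding RNA, had peaks of 162, 31.4, 28.2, 28.2 and 6.04. Xist, the RNA of X inactivation, had 122, 61.2, 56.4 and 12.1, and Malat1, a nuclear speckle RNA known to carry m6A in other cells, had 15.5 and 2.12. Of the 21 long non-coding RNAs listed, 8 had a peak (38.1%, 18.1 to 61.6; median best fold 41.35). Processed pseudogenes had 55 peaks and a median fold of 8.05, and reads shared with their parent genes make these uncertain.

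Most peaks assigned to antisense RNAs overlapped a peak on the opposite strand, which is partly so by construction. Of 76 such peaks, 52 (68.4%, interval 56.7 to 78.6) overlapped a peak on the opposite strand, and 20 shared their place with no other peak. Among peaks of protein-coding genes, 202 of 8107 did (2.49%, 2.16 to 2.86). Antisense RNAs are labelled for lying opposite another gene, so the gap between these shares is no separate finding. Such overlap was also found for 22 of 62 peaks labelled lincRNA, 12 of 48 labelled processed transcript and 1 of 11 labelled bidirectional promoter RNA. Among 136 opposite-strand pairs of any gene type sharing at least 50% of the shorter peak, 70 (51.5%) had identical folds. The coding genes Lypd1, with 1260 in its 3′ UTR, and Gpr39, with 1380 in coding sequence, overlapped on opposite strands with unequal folds. The labels' protocols name a smart-seq library and do not say whether strand was kept, so reads of overlapping partners may not be told apart.

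The cell type labelled was checked against marker genes, within the limit that a peak needs a methylated as well as an expressed transcript. Peaks were found in 9 of 12 markers of activated stellate cells, 5 of 13 of stellate cells and 5 of 12 of endothelial cells, against 21.4% of all coding genes. The stellate and endothelial counts do not tell these cell types apart. The stellate markers with a peak were Pdgfrb, at 350, Lrat, at 114, Hand2, at 94.6, Des, at 15.3, and Lhx2, at 7.65. Reln, Hgf, Gfap, Ngfr, Rgs5, Colec11, Vim and Dcn had none. None of 12 hepatocyte and none of 10 lymphocyte markers had a peak. Among markers of other liver cells, 5 of 12 endothelial genes had one: Cdh5, the endothelial cadherin, at 737, 468, 21.7 and 14.8, Eng at 232, Pecam1 at 30.6, Lyve1 at 23.4 and Kdr at 10.5. Of macrophage markers 1 of 12 had a peak (Csf1r, 15.7), and of cholangiocyte and mesothelial markers 1 of 10 (Wt1, 12.9). The part of endothelial RNA in the peaks of Vegfa, Angpt2, Nrp2 and other vascular genes was not tested.

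The folds themselves were not spread evenly. Between 5 and 40, 4954 of 5650 folds (87.7%) were whole multiples of 0.4026 within the rounding of the deposited values, against 18.6% for evenly spread values. A fold of 7.25 was listed for 155 peaks, and 133 of these shared the p-value of 0.019. The peaks on the steps had a median fold of 14.1 and a median log10 p of -4.31, and the 696 peaks off them had 11.3 and -18.5. Equal low folds are therefore ties. Neighbouring steps had different commonest p-values in the deposited list, with 0.019 at 7.25, 0.015 at 7.65 and 0.011 at 8.05.

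**Figure D5:**
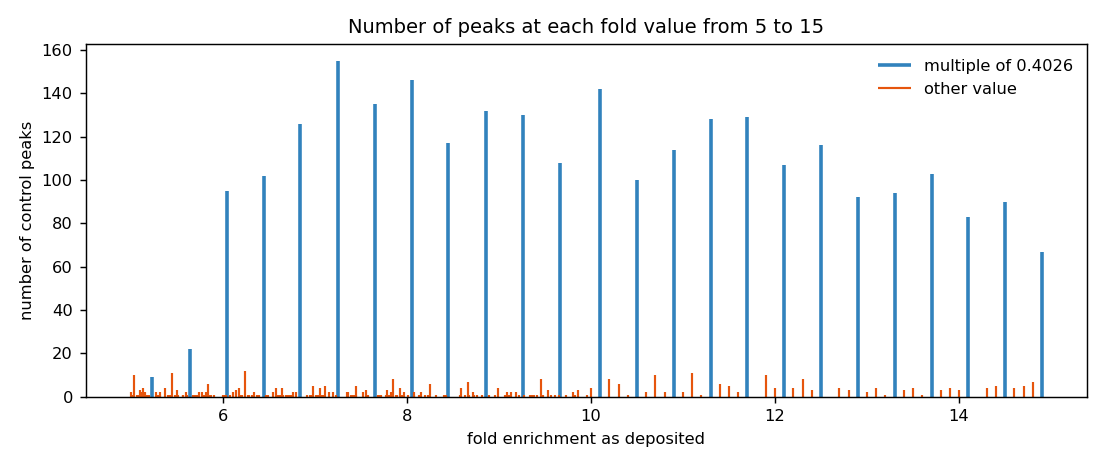
Number of control peaks at each deposited fold from 5 to 15, with multiples of 0.4026 in blue and other values in orange. Nearly all tall lines are blue, the highest with 155 peaks at 7.25.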

How the data were processed

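Per the labels' protocols, 100 µg of total RNA was fragmented to 100 to 200 nucleotides, precipitated with an antibody against m6A, made into smart-seq libraries and read as 150-bp paired ends beside input RNA. HISAT2, HOMER and the mm10 build stand in the submitters' processing notes without roles. Which program called the peaks, with which settings and how over replicates, is not given in the sources used here. The deposited control list gives, per the file headers, 1 fold enrichment per peak (read as a ratio), a p-value, and log10 columns of p and of the false discovery rate, used here as a score. In the deposited log10 columns, 57 and 313 cells held a spreadsheet error, and 315 p-values were 0. The largest p-value deposited was 0.049.

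All 8397 rows were kept, and width is the sum of the exon blocks. Genes were joined by symbol. Of 4986 symbols, 4844 were found in a RefSeq table (GRCm38.p6). In 12 rows, 7 symbols had turned into spreadsheet dates and were restored by position and synonym. No per-sample columns existed (0 unmapped). Peak overlaps, intervals and counts were computed with Python 3.11.15, pandas 2.3.3, numpy 2.4.6 and scipy 1.17.1, tested on simulated data, and drawn with matplotlib 3.10.9. No genome was used, so motifs were searched only in the first 50 bases of genes, and distance from the stop codon was not analysed.

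The members and the 31 gene lists were chosen with earlier results of these data known. Named genes were the 15 of highest best fold, the 10 with most peaks, the 5 of highest fold in each transcript part, the 5 widest peaks, the 8 highest non-coding genes, from each list the 3 highest, the one with most peaks and the lowest, and Mettl3, Mettl14, Wtap and Lats2, with predicted genes passed over. Genes of the sequences shown, marker genes, Col3a1, Col1a1, Col1a2, Acta2, Tagln, Cnn1, Malat1 and the mitochondrial genes were named after their values were seen. Not every gene the rule takes is described, and 1 result is not reported here.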

Additional observations from a re-analysis of the deposited data

How the results depend on the processing

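No paired analysis was possible because each genotype has 1 pooled peak list with no value per replicate, and for the same reason no replicate could be left out. Counts within 1.5 times, correlations within 0.05 and other values within their 95% interval were taken as unmoved. No single value changed sign, but the order of coding sequence and 3′ UTRs by median fold turned at the p filter, as given below. With folds of at least 10, median folds were 27.4 over all peaks, 28.2 in coding sequence, 27.4 in 3′ UTRs, 25.8 in 5′ UTRs and 25.4 in other exons; multi-block peaks made up 39.2% of coding-sequence and 11.3% of 3′ UTR peaks, 5′ UTRs held 1.97% of peaks, coding genes 97.1%, the median width was 268, 33.7% of genes had several peaks, and 18.9% of list members had a peak, against 22.8% in the full list. With p of at most 1e-10, 3744 peaks in 2686 genes were left; coding sequence held 54.9% of them, other exons 11.7% and coding genes 97.4%. Median folds were then 53.1 over all peaks, 53.5 in coding sequence, 55.4 in 3′ UTRs, 50.9 in 5′ UTRs and 48.3 in other exons, so that 3′ UTRs passed coding sequence. Multi-block shares were 45.1%, 17.2% and 33.6% in coding sequence, 3′ UTRs and other exons, the median width 330, genes with several peaks 25.3%, the correlation of peak number and best fold 0.289, and list members with a peak 13.2%. Both filters raise the folds by construction. Geometric means were 24.4 in coding sequence, 23.8 in 3′ UTRs, 19.3 in 5′ UTRs and 20.5 in other exons. From outer start to outer end the median width was 271. Genes with 3 or more peaks made up 15.5%, and with the median fold per gene the correlation was 0.131. An alternative chosen after seeing the data, keeping 1 of 2 peaks that share 50% of the shorter, left 11.9% of peaks in other exons and 97.5% in coding genes. Counting identical places once changed no value. The share of members with a peak moved in 4 of 31 lists at fold 10 (cytosolic ribosomal proteins 9.20%, contractile genes 51.9%, Zfp-named genes 23.9%, olfactory receptors 0), in 17 at the p filter and in 0 after merging. The planned motif alternatives for whole peaks were not run. Depth is unknown, which limits every low fold.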

Other observations

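Peaks of the mitochondrial genome had low folds, some of them with a p-value of 0. All 9 peaks lay between 1.58 and 4.12, against a median of 19.3 over all control peaks. Of the 7 peaks with a fold below 5 and a p-value of 0, 4 belonged to subunit genes of complex I: mt-Nd5 at 1.82 and mt-Nd1, mt-Nd2 and mt-Nd4 at 2.26 each. The other 3 were in Rpl19, at 3.05, the membrane-cytoskeleton linker gene Msn, at 3.18, and the tropomyosin gene Tpm1, at 4.27. In all, 377 peaks in 349 genes had a fold below 5, with 40.8% of them in more than 1 block, against 28.2% of the 8020 peaks at 5 or above. A p-value in this list therefore does not rank peaks as the fold does.

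The X chromosome carried 199 peaks with a median fold of 16.1, and the Y chromosome carried 0. The sex of the mice is not given in the labels, and the suffix XY in the sample titles was not interpreted.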
